A study of Mus musculus with 51 samples.

Results

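Most of the genes described here serve the synthesis of serine, glycine and proline, and Atf4 encodes the transcription factor that controls many of them. They are Atf4, Asns, Phgdh, Psat1, Psph, Shmt2, Mthfd2, Aldh18a1, Pycr1 and Trib3, chosen by symbol as Atf4 and genes it targets. Of these, Asns encodes asparagine synthetase, Mthfd2 a folate enzyme and Trib3 a pseudokinase. All 10 were found among the 36528 gene identifiers of the count table, and all 10 passed the filter on low counts in each fraction. Male C57/B6 mice were given saline or bleomycin into the trachea, and at day 14 their lungs were sorted by FACS. No transgene or other allele is named in the labels for either arm, and 5 saline and 8 bleomycin animals are given. CD31+ (endothelial), CD45+ (leukocyte), EpCAM+ (epithelial) and triple-negative cells, which carry none of the 3 surface markers, were each sequenced as total RNA. There were 5 saline libraries in each fraction, 7 bleomycin libraries of CD31+ cells and 8 of each other fraction, 51 in all. Bleomycin, a DNA-damaging drug, injures the lung and is followed by scarring, and a single library is named by its title, in which "Negative" stands for the triple-negative fraction.

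Collagen, the main protein of scar tissue, is built from long repeats in which glycine recurs at regular places and proline is frequent. Serine is made from a glycolytic intermediate by PHGDH, PSAT1 and PSPH in turn. SHMT2 then splits serine in the mitochondrion into glycine and a carbon unit that MTHFD2 passes through the folate cycle. Proline is made from glutamate by ALDH18A1 and PYCR1. ATF4 is the transcription factor of the integrated stress response, a programme set off by amino acid shortage and by unfolded protein. It switches on genes of amino acid synthesis and transport, and its own protein is governed largely at translation, so its mRNA level need not follow its activity. In lung, the same route is known as part of the fibroblast response to TGF-beta.

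Libraries held 15692665 to 36514885 counts, with a median of 22717142. Levels are in CPM, the counts scaled to 1000000 per library, on 1 scaling of all 51 libraries, and a fold change is bleomycin over saline from the fit of its own fraction, with its standard error (SE). The genes behind the sort were high where they should be, as Pecam1 (CD31) averaged 3451 CPM in bleomycin CD31+ libraries, Ptprc 936 CPM in CD45+, Epcam 214 CPM in EpCAM+ and Col1a1 16323 CPM in triple-negative libraries. Outside their own fractions, the highest group means were 219 CPM of Pecam1 in saline CD45+ and 23.3 CPM of Ptprc in saline triple-negative libraries. For Epcam and Col1a1 they were 27.6 and 450 CPM, both in bleomycin CD45+ libraries. Epcam averaged 4.41 CPM in saline CD45+ libraries. Some libraries stood apart from their group by marker genes of another cell type. Bleomycin_CD31_621 held 9994 CPM over 12 epithelial marker genes against 1126 to 2548 CPM in the other bleomycin CD31+ libraries. Bleomycin_CD45_613 held 7883 CPM over 12 mesenchymal marker genes against 473 to 2564 CPM in the others of its group. Without the former 7 of the 10 genes were still called in CD31+, and without the latter 4 in CD45+, as with all libraries. In bulk RNA of sorted cells, fewer cells of a type and less RNA per cell cannot be told apart. Nothing in the labels says which libraries of different fractions came from the same animal, so libraries were taken as independent.

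The promoters of 4 of the genes are shown because ATF4 binds, together with C/EBP proteins, a composite element whose core is TGATGNAA. It was searched on both strands, 250 bases before to 50 bases after each start listed in the promoter set used (RefSeq, GRCm38.p6). All 10 genes had such a window, but the listed starts need not be the only ones. Asns and Pycr1 hold the element in these windows, and Psat1 and Mthfd2, which had the largest rises in CD31+ cells, do not. Psat1 has a further listed window (chr19:15924623-15924872), not shown, without a match. The only window of Mthfd2 lies inside the span of the gene (83305704 to 83326011), so bases before the outer end of that span were not searched. Each sequence below is the 250 bases before a listed start, read 5′ to 3′ on the gene's strand, and capitals mark the match.
Asns (chr6:7693210-7693459, minus strand): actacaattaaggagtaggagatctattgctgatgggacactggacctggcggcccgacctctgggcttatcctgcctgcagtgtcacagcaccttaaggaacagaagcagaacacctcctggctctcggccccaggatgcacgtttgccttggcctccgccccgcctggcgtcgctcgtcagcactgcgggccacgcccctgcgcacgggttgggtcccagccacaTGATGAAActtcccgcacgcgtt
Pycr1 (chr11:120643749-120643998, minus strand): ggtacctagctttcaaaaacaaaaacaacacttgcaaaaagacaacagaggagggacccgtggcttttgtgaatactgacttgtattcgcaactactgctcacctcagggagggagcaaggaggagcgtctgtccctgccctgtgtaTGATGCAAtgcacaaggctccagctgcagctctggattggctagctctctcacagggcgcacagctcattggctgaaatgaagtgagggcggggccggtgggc
Psat1 (chr19:15925060-15925309, minus strand): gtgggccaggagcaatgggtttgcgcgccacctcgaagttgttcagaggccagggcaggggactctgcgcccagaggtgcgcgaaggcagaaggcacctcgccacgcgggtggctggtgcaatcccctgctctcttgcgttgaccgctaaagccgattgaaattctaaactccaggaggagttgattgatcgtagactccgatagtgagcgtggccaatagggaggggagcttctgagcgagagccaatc
Mthfd2 (chr6:83317605-83317854, minus strand): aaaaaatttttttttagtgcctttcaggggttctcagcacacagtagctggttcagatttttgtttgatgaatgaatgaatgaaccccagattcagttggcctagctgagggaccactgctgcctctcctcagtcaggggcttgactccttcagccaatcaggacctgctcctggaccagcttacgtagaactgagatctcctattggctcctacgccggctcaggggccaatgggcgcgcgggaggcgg
The match runs from -23 to -16 in Asns and from -103 to -96 in Pycr1, counted back from the base before the start. Trib3 holds it on the other strand, from 15 to 22 after the start. The 3 genes with a match of 10 compare with 4.51% of 27025 genes, or 3.97% of 32851 promoters. The 10 were chosen as Atf4 and genes it targets, so this is no test of enrichment. Such a match is a description of letters and not a binding site, and no match says only that these letters are not in this window.

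After bleomycin, the serine and folate enzyme genes Psat1 and Mthfd2 and the proline gene Aldh18a1 rose in every fraction. Atf4 fell in every fraction. The rises of Psat1 in CD45+ and of Aldh18a1 in EpCAM+ cells were no longer called without certain single libraries, as given below. In CD31+ cells 6 of the 10 genes rose, 1 fell and 3 did not pass the test (adjusted p under 0.05), where 24.2% of all 16075 genes tested rose and 24.6% fell (48.8% called). In CD45+ cells 3 rose, 1 fell and 6 did not pass, against 28.4% and 26.8% of 16493 genes (55.3% called). In EpCAM+ cells 7 rose, 2 fell and 1 did not pass, against 31.2% and 28.9% of 16902 genes (60.2% called). In triple-negative cells 6 rose, 1 fell and 3 did not pass, against 27.7% in each direction of 16700 genes (55.4% called). The share that rose lies near the background in CD45+ cells and above it in the other fractions. The genes that fell were Atf4 in each fraction and Trib3 in EpCAM+ cells, too few to set against the background share. The median log2 fold change of the 10 genes was 0.83 for CD31+ cells, 0.19 for CD45+ cells, 0.34 for EpCAM+ cells and 0.62 for triple-negative cells, against -0.01, -0.00, 0.02 and 0.01 over all genes tested. Bleomycin and saline libraries did not overlap for 4, 1, 4 and 6 of the genes in these fractions, beside 26.4%, 31.4%, 35.8% and 29.7% of all genes.

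**Figure D1:**
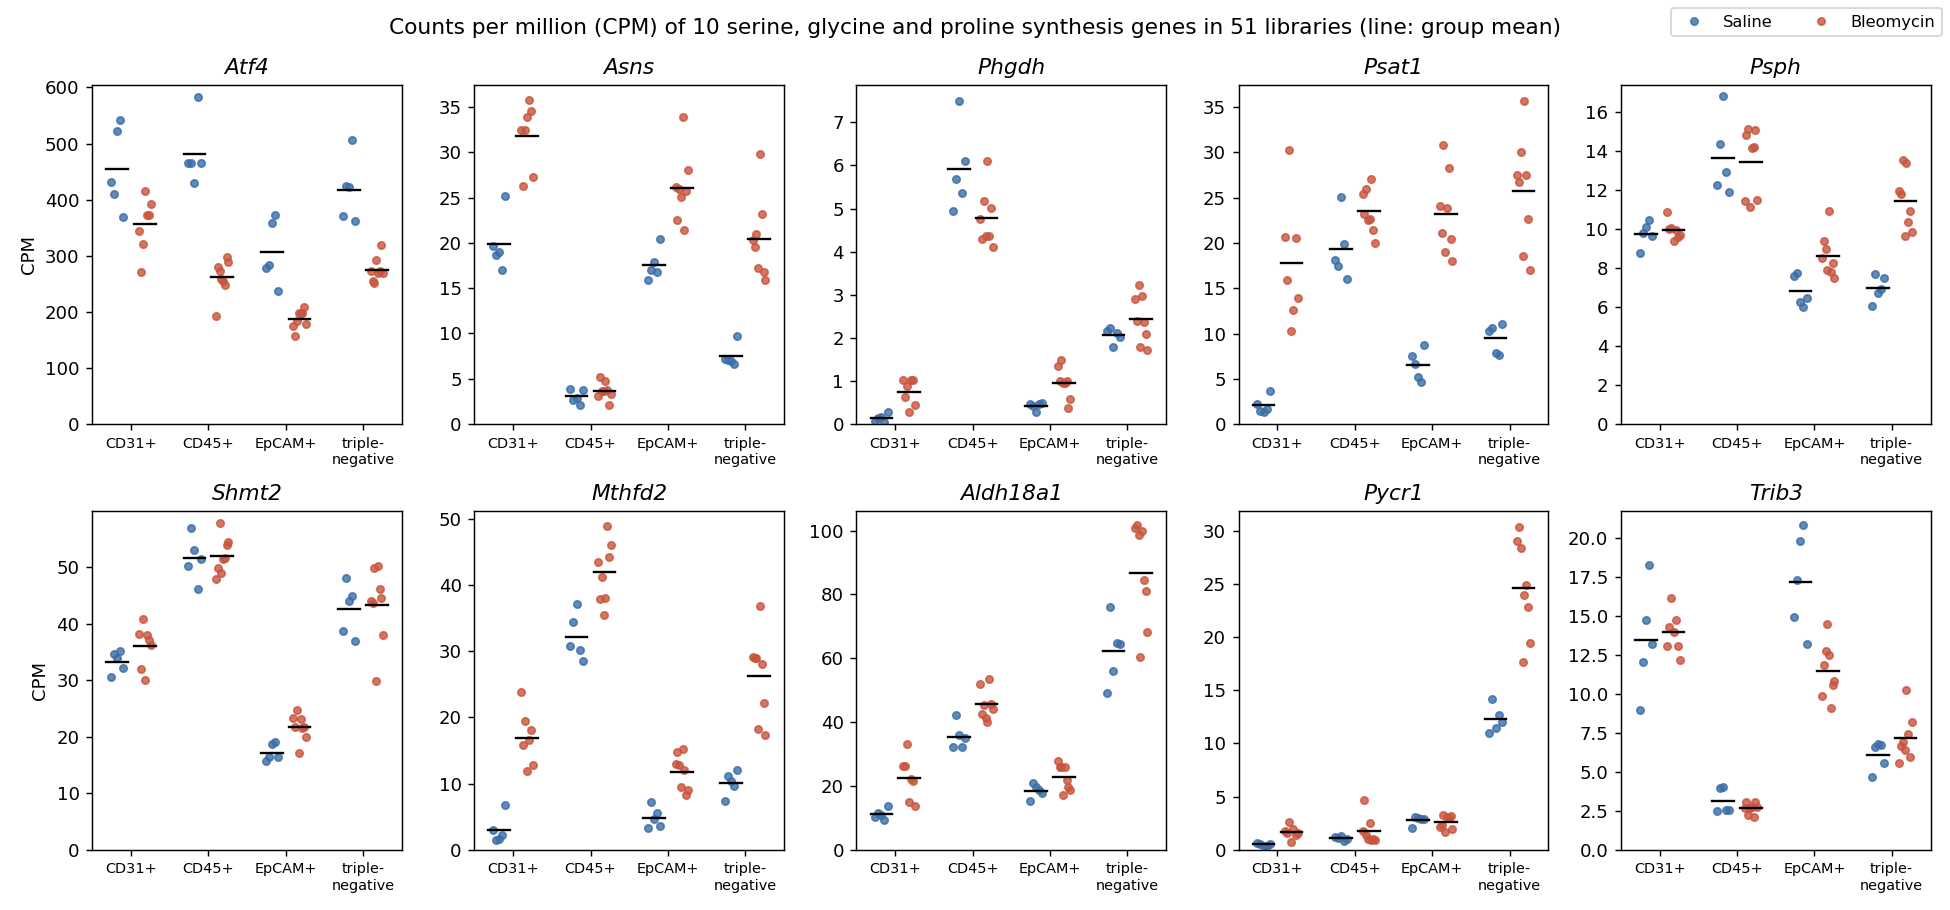
Each panel plots CPM (vertical axis, from 0) of 1 gene in all 51 libraries by fraction (horizontal axis), saline in blue and bleomycin in red, with a black line at each group mean. Atf4 sits lower after bleomycin in every fraction, Psat1 and Mthfd2 sit higher, and Aldh18a1 and Pycr1 stand highest in triple-negative libraries.

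Genes of cell division rose beside them and are given here because proliferating cells are known to use serine and glycine. Over 12 division genes the summed level was 349 to 926 CPM in bleomycin and 36.2 to 39.9 CPM in saline CD31+ libraries. It was 405 to 528 against 193 to 692 CPM in CD45+, 261 to 416 against 41.1 to 80.8 CPM in EpCAM+, and 138 to 339 against 19.3 to 26.9 CPM in triple-negative libraries. The groups overlapped in CD45+ cells and nowhere else, and no marker was at 0 throughout a group. All 12 genes were called higher in CD31+ and triple-negative, 8 of 12 in CD45+ and 11 of 12 in EpCAM+ cells, where 1 was called lower. The shares of all genes called higher were 24.2%, 27.7%, 28.4% and 31.2% in the same order of fractions. The mean log2 score over the 12 genes was higher by 3.45, 0.71, 2.27 and 2.96 in CD31+, CD45+, EpCAM+ and triple-negative cells (exact two-sided permutation tests, p adjusted over 32 tests = 0.00673, 0.0224, 0.00673 and 0.00673). Scores of other cell types also moved: smooth muscle and pericyte markers by -1.14 in CD31+ cells and by -0.86 among triple-negative cells (0.00673 each), and endothelial markers by -1.11 in CD45+ cells (0.0166) by the same exact tests. Red cell and platelet markers moved by -1.27 in CD31+ (0.00673) and -1.21 in triple-negative cells (0.0101), and the endothelial markers of the CD31+ fraction itself by -0.22 (0.0101), also by exact permutation. In EpCAM+ cells the leukocyte list summed to 30205 to 38464 CPM in saline and 9346 to 17275 CPM after bleomycin, with a score difference of 0.14 (exact test, adjusted p = 0.722), and its Lyz2 is also known from alveolar type II cells. The part of division or of these cell types in the results below was not tested.

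Atf4 (Entrez 11911, chromosome 15, 80255184 to 80257545), the regulator, was the most abundant of the 10 per length, at 193 CPM per kb of exon in saline CD31+ libraries against 10.7 for the next, Shmt2. Its level fell with bleomycin in all 4 fractions. In CD45+ cells the saline libraries stood at 429, 465, 465, 465.7 and 583 CPM, and the bleomycin libraries ran from 193 to 298 CPM with a median of 265. The groups lay well apart, with a log2 fold change of -0.83 (SE 0.10, adjusted p = 7.46e-06). In EpCAM+ cells saline values were 238, 278, 283, 358 and 373 CPM and bleomycin values 156 to 208 CPM (median 191). Here too the ranges were separate, and the log2 fold change was -0.71 (SE 0.10, adjusted p = 1.65e-05). In triple-negative cells saline values were 363, 371, 423, 424 and 506 CPM and bleomycin values 251 to 319 CPM (median 271), a log2 fold change of -0.58 (SE 0.08, adjusted p = 4.7e-05) between groups that again did not overlap. CD31+ cells differed in that the groups overlapped, with saline at 368, 410, 432, 523 and 541 CPM and bleomycin at 271 to 416 CPM (median 373). Only 3 of 7 bleomycin libraries lay below all saline ones, and the log2 fold change was -0.37 (SE 0.11, adjusted p = 0.0152). That call was lost when the mean marker score of the other 3 lineages was a covariate (-0.25, adjusted p = 0.0713). Atf4 mRNA was lower in all 4 fractions, and several of its known target genes were higher in CD31+, EpCAM+ and triple-negative cells. In CD45+ cells 3 of the 10 genes rose, near the 28.4% of all genes that did so.

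Trib3 (Entrez 228775, chromosome 2, 152337425 to 152344060) encodes a pseudokinase that ATF4 induces and that in turn restrains ATF4. It fell in EpCAM+ cells, from 13.2, 14.9, 17.3, 19.8 and 20.8 CPM in saline to 9.13 to 14.5 CPM (median 11.4) after bleomycin. Of 8 bleomycin libraries 7 lay below all saline ones, and the log2 fold change was -0.58 (SE 0.12, adjusted p = 8.11e-04). In CD31+ cells it averaged 13.5 ± 3.45 CPM (SD, n = 5) in saline and 14.0 ± 1.31 CPM (n = 7) after bleomycin, a log2 difference of 0.03 (SE 0.14). The differences were -0.17 (SE 0.17) in CD45+ and 0.26 (SE 0.15) in triple-negative cells, neither past the test (adjusted p = 0.414 and 0.163 in edgeR's test).

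Asns (Entrez 27053, chromosome 6, 7675165 to 7693209) encodes asparagine synthetase, a standard readout of ATF4, and holds the element shown above. It rose in CD31+, EpCAM+ and triple-negative cells. In triple-negative cells the saline libraries stood at 6.60, 6.94, 7.07, 7.20 and 9.74 CPM and bleomycin libraries at 15.9 to 29.9 CPM (median 19.9). Every bleomycin library lay above every saline one, with a 2.77-fold rise (log2 1.47, SE 0.16, adjusted p = 3.96e-06). In CD31+ cells saline values were 16.98, 18.7, 19.0, 19.6 and 25.2 CPM and bleomycin values 26.3 to 35.8 CPM (median 32.5), and the groups were separate but close (log2 0.66, SE 0.11, adjusted p = 2.51e-04). In EpCAM+ cells saline values of 15.9, 16.8, 16.97, 17.9 and 20.4 CPM and bleomycin values of 21.4 to 33.9 CPM (median 25.9) were likewise separate (log2 0.57, SE 0.10, adjusted p = 1.01e-04). CD45+ cells held little of it, 3.05 ± 0.743 CPM (n = 5) in saline and 3.69 ± 0.962 CPM (n = 8) after bleomycin, and the log2 difference of 0.32 (SE 0.22, adjusted p = 0.221) did not pass. With the marker score of the other lineages as a covariate this difference was 0.41 and passed (adjusted p = 0.0363 in edgeR's test). The rise in triple-negative cells exceeded that in CD31+ by 0.77 (SE 0.21, adjusted p = 0.00409), that in EpCAM+ by 0.88 (SE 0.20, 7.14e-04) and that in CD45+ by 1.19 (SE 0.22, 2.31e-05), as tested in 1 edgeR fit of all libraries.

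Psat1 (Entrez 107272, chromosome 19, 15905123 to 15925059), the aminotransferase of serine synthesis, rose in all 4 fractions and had the largest fold change of the 10 genes in CD31+ and EpCAM+ cells. In CD31+ cells saline libraries stood at 1.32, 1.47, 1.67, 2.24 and 3.65 CPM and bleomycin libraries at 10.2 to 30.3 CPM (median 15.9). The lowest bleomycin library exceeded the highest saline one, and the rise was 8.46-fold (log2 3.08, SE 0.33, adjusted p = 1.72e-05). In EpCAM+ cells it went from 4.64, 5.22, 6.63, 7.55 and 8.75 CPM to 18.01 to 30.9 CPM (median 22.5), again without overlap (3.54-fold, log2 1.82, SE 0.17, adjusted p = 3.5e-07). In triple-negative cells saline values of 7.62, 7.85, 10.3, 10.6 and 11.04 CPM were all below bleomycin values of 17.1 to 35.7 CPM (median 27.1), a 2.75-fold rise (log2 1.46, SE 0.18, adjusted p = 1.16e-05). CD45+ cells already had the highest saline level, at 16.1, 17.4, 18.1, 19.9 and 25.1 CPM, and bleomycin libraries at 19.99 to 27.1 CPM (median 22.9) overlapped them. That rise was small (log2 0.33, SE 0.11, adjusted p = 0.0169) and was lost without Bleomycin_CD45_614, Saline_CD45_645 or Saline_CD45_648 (adjusted p = 0.0522, 0.0503 and 0.0531 in turn). In saline lungs the order of levels was CD45+, triple-negative, EpCAM+ and CD31+, each step past the test. After bleomycin triple-negative (25.7 ± 6.13), CD45+ (23.5 ± 2.43) and EpCAM+ cells (23.2 ± 4.50 CPM) were not told apart, with log2 differences of 0.13 (SE 0.17, adjusted p = 0.492) and 0.02 (SE 0.17, 0.92) between neighbours. CD31+ cells had the lowest mean, at 17.7 ± 6.77 CPM, 0.39 below EpCAM+ on the log2 scale (SE 0.18, adjusted p = 0.0442). That step lost its call in 31 of 51 fits with 1 library left out, and without Bleomycin_CD31_623 the difference (CD31+ minus EpCAM+) was -0.24 (adjusted p = 0.224).

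Phgdh (Entrez 236539, chromosome 3, 98313171 to 98339969), which opens the serine route, was scarce outside CD45+ cells. In CD31+ cells saline libraries held 1 to 7 counts each (18 in all), or 0.0418, 0.0747, 0.137, 0.160 and 0.290 CPM, and bleomycin libraries held 6 to 25 counts, or 0.269 to 1.03 CPM (median 0.872). Of 7 bleomycin libraries 6 lay above all saline ones (log2 2.37, SE 0.46, adjusted p = 0.00108), but the size of a fold change resting on so few counts is imprecise. In EpCAM+ cells the saline values of 0.285, 0.427, 0.455, 0.474 and 0.497 CPM compared with 0.377 to 1.48 CPM (median 0.976) after bleomycin, with 7 of 8 bleomycin libraries above all saline ones (log2 1.17, SE 0.31, adjusted p = 0.00407). In CD45+ cells it stood at 5.91 ± 0.982 CPM in saline and 4.78 ± 0.654 CPM after bleomycin, and in triple-negative cells at 2.06 ± 0.172 and 2.43 ± 0.557 CPM. Neither difference passed (log2 -0.26, SE 0.13, adjusted p = 0.117, and 0.26, SE 0.17, adjusted p = 0.221). Without Bleomycin_CD45_616 the difference in CD45+ cells was -0.35 and passed (adjusted p = 0.0358 in edgeR's test). Leukocyte markers in CD31+ libraries summed, at the median, to 4.98% of their level in CD45+ libraries after bleomycin and 4.29% in saline. Their median sum in CD31+ libraries was itself higher after bleomycin, at 1788 CPM against 945 CPM in saline. The score differed by 1.06 (exact permutation test, adjusted p = 0.0661). Of 11 leukocyte markers tested there, 7 were called higher and 0 lower, beside 24.2% and 24.6% of all genes. The rise of Phgdh in CD31+ stands beside this, and the part of leukocyte RNA in it was not tested.

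Psph (Entrez 100678, chromosome 5, 129765558 to 129787443), the phosphatase that releases serine, rose in triple-negative and EpCAM+ cells. In triple-negative cells saline libraries stood at 6.05, 6.71, 6.93, 7.51 and 7.71 CPM and bleomycin libraries at 9.68 to 13.6 CPM (median 11.4), without overlap (log2 0.73, SE 0.11, adjusted p = 4.9e-05). In EpCAM+ cells 7 of 8 bleomycin libraries exceeded all saline ones (6.82 ± 0.806 to 8.65 ± 1.11 CPM, log2 0.35, SE 0.11, adjusted p = 0.012). Levels in CD31+ (9.77 ± 0.643 and 9.95 ± 0.472 CPM) and CD45+ cells (13.7 ± 2.02 and 13.4 ± 1.77 CPM) differed by 0.01 (SE 0.07) and 0.03 (SE 0.11) on the log2 scale, neither past the test. Psph shares 452 exon bases with Cct6a on the opposite strand, and whether counting used strand is not stated, so its level carries that uncertainty.

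Mthfd2 (Entrez 17768, chromosome 6, 83305704 to 83326011), the mitochondrial folate enzyme known for high levels in dividing cells, rose in all fractions. In CD31+ cells saline values were 1.47, 1.64, 2.30, 3.02 and 6.84 CPM and bleomycin values 11.9 to 23.9 CPM (median 16.6). The highest saline library, Saline_CD31_653, still lay below every bleomycin one, and the rise was 5.49-fold (log2 2.46, SE 0.36, adjusted p = 1.6e-04). In triple-negative cells saline values of 7.34, 9.62, 10.4, 11.1 and 12.0 CPM and bleomycin values of 17.3 to 36.8 CPM (median 28.5) were separate (2.62-fold, log2 1.39, SE 0.19, adjusted p = 2.76e-05). EpCAM+ cells went from 3.23, 3.55, 4.70, 5.59 and 7.20 CPM to 8.34 to 15.2 CPM (median 12.4), also without overlap (2.45-fold, log2 1.29, SE 0.21, adjusted p = 7e-05). In CD45+ cells, where saline libraries stood at 28.5, 30.2, 30.8, 34.4 and 37.2 CPM, 7 of 8 bleomycin libraries (35.5 to 48.9 CPM, median 42.4) exceeded all of them, but the rise was 1.35-fold (log2 0.43, SE 0.09, adjusted p = 7.44e-04). CD45+ cells stayed the fraction with the highest level under both treatments.

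Shmt2 (Entrez 108037, chromosome 10, 127517123 to 127522444), which turns serine into glycine, changed little. It rose in EpCAM+ cells, from 15.6, 16.3, 16.3, 18.7 and 19.0 CPM in saline to 17.1 to 24.7 CPM (median 21.7), with 7 of 8 bleomycin libraries above all saline ones (log2 0.34, SE 0.09, adjusted p = 0.00278). The log2 differences were 0.09 (SE 0.07) in CD31+, 0.06 (SE 0.06) in CD45+ and 0.04 (SE 0.11) in triple-negative cells (adjusted p = 0.295, 0.38 and 0.747). Its effects were not shown to differ over all 4 by edgeR's interaction test (adjusted p = 0.0687, and 0.0485 with another scaling), while single pairs set EpCAM+ above CD45+ by 0.32 (SE 0.12, adjusted p = 0.0346) and above triple-negative by 0.31 (SE 0.12, 0.0494). Both pairs lost their call without the filter on low counts (0.0774 and 0.111) and in 28 and 35 of 51 fits with 1 library left out. It stood at 51.5 ± 3.94 CPM in saline and 52.0 ± 3.26 CPM in bleomycin CD45+ libraries, above triple-negative, CD31+ and EpCAM+ cells in that order under both treatments. A stretch of 32 exon bases overlaps Ndufa4l2 on the opposite strand.

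Aldh18a1 (Entrez 56454, chromosome 19, 40550257 to 40588463) encodes the enzyme that commits glutamate to proline. Its level was highest in triple-negative cells, where saline libraries stood at 49.2, 56.2, 64.5, 64.7 and 76.2 CPM and bleomycin libraries at 60.3 to 102 CPM (median 91.5). Of 8 bleomycin libraries 6 exceeded all saline ones (log2 0.50, SE 0.14, adjusted p = 0.00708). The fold change was largest in CD31+ cells, from 9.41, 10.4, 10.9, 11.5 and 13.7 CPM to 13.6 to 33.1 CPM (median 22.1), with 6 of 7 bleomycin libraries above the saline range (log2 0.99, SE 0.21, adjusted p = 0.00171). CD45+ cells went from 35.5 ± 4.10 to 45.5 ± 4.89 CPM (log2 0.41, SE 0.09, adjusted p = 9.19e-04) with 6 of 8 libraries above. EpCAM+ cells went from 18.5 ± 2.09 to 22.9 ± 4.06 CPM (log2 0.32, SE 0.12, adjusted p = 0.0333), and that call was lost without any of 7 single libraries (Bleomycin_EpCAM_628, Bleomycin_EpCAM_629, Bleomycin_EpCAM_630, Bleomycin_EpCAM_632, Saline_EpCAM_654, Saline_EpCAM_657 or Saline_EpCAM_658, adjusted p up to 0.0985). After bleomycin EpCAM+ and CD31+ levels were not told apart (log2 0.02, SE 0.13, adjusted p = 0.881), where in saline EpCAM+ stood above CD31+ by 0.72 (SE 0.17, 1.62e-04) in edgeR's fit.

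Pycr1 (Entrez 209027, chromosome 11, 120638998 to 120643748), the reductase that completes proline, was the member most concentrated in triple-negative cells and holds the element shown above. Saline triple-negative libraries stood at 10.9, 11.5, 12.0, 12.7 and 14.2 CPM and bleomycin libraries at 17.7 to 30.4 CPM (median 24.4). The groups did not overlap (2.03-fold, log2 1.02, SE 0.13, adjusted p = 1.43e-05). In saline lungs the next fraction, EpCAM+, stood at 2.78 ± 0.418 CPM, 2.14 lower on the log2 scale (SE 0.27, adjusted p = 1.37e-09), and after bleomycin at 2.58 ± 0.620 CPM, 3.24 lower (SE 0.22, 4.02e-18). EpCAM+ cells showed no called change (log2 -0.10, SE 0.18, adjusted p = 0.653), and the effects in triple-negative and EpCAM+ cells differed by 1.10 (SE 0.34, adjusted p = 0.0103). CD31+ cells went from 0.335, 0.400, 0.548, 0.581 and 0.672 CPM to 0.763 to 2.65 CPM (median 1.61), low levels of 8 to 76 counts per library whose groups did not overlap (log2 1.69, SE 0.30, adjusted p = 5.27e-04). Mesenchymal markers in CD31+ libraries summed, at the median, to 1.88% of their level in triple-negative libraries in saline and 1.001% after bleomycin. In CD45+ cells the difference of 0.77 (SE 0.40, adjusted p = 0.118) did not pass, and it rested on Bleomycin_CD45_613, the library with 7883 CPM of mesenchymal markers, which held 4.68 CPM of Pycr1 against 0.915 to 2.49 CPM in the others. Without it the log2 difference was 0.34 (adjusted p = 0.317). With the marker score of the other lineages as a covariate it was 0.74 (adjusted p = 0.0183).

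**Figure D2:**
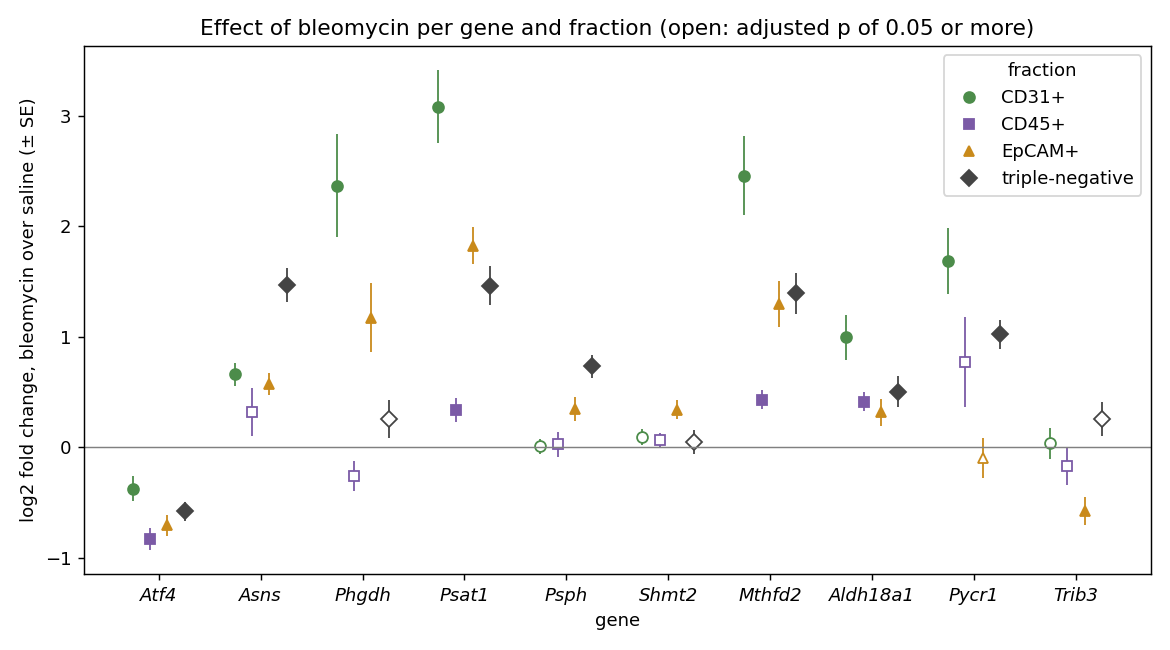
Log2 fold change, bleomycin over saline, with its SE (vertical axis) for each gene (horizontal axis) in CD31+, CD45+, EpCAM+ and triple-negative cells. Filled symbols passed the test, and the plot shows Psat1 at 3.08 in CD31+ cells at the top and Atf4 below 0 in every fraction.

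Whether a gene responded differently between fractions was tested in 1 fit of all 51 libraries. The effects differed for 9 of the 10 genes, all but Shmt2, where 64.3% of 19841 genes tested did so. Without the filter on low counts the calls of Atf4 (adjusted p = 0.0587) and Aldh18a1 (0.0541) were lost. For Psat1 (interaction adjusted p = 8.65e-10) the effect in CD31+ cells exceeded that in EpCAM+ by 1.28 (SE 0.30, 0.00109), in triple-negative by 1.66 (SE 0.30, 3.48e-05) and in CD45+ by 2.82 (SE 0.30, 1.82e-10) on the log2 scale. For Mthfd2 the effect in CD31+ exceeded those in EpCAM+ by 1.19 (SE 0.33, adjusted p = 0.00557), triple-negative by 1.11 (SE 0.32, 0.00814) and CD45+ by 2.10 (SE 0.32, 6.88e-07). These pairwise effects were called for 26.6% (CD31+ against EpCAM+), 25.3% (against triple-negative) and 38.2% (against CD45+) of all genes. The other pairs were called for 38.8% (CD45+ against EpCAM+), 37.4% (CD45+ against triple-negative) and 31.3% (EpCAM+ against triple-negative) of all genes. For Psph the effect in triple-negative cells was the larger, by 0.68 over CD31+ (SE 0.14, adjusted p = 2.13e-04), 0.73 over CD45+ (SE 0.14, 2.72e-05) and 0.37 over EpCAM+ (SE 0.14, 0.0396). The last of these lost its call without the filter (0.0516) and in 9 of 51 fits with 1 library left out (up to 0.0877). For Atf4 the fall in CD45+ cells was deeper than in CD31+ by 0.53 (SE 0.15, adjusted p = 0.00481), and no other pair passed. For Trib3 the effect in EpCAM+ cells lay below that in triple-negative by 0.81 (SE 0.20, adjusted p = 0.00157) and below CD31+ by 0.63 (SE 0.20, 0.0158). The comparisons of fractions share libraries, and each gene's own values are those given above.

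Of 60 pairwise contrasts of fractions over the 10 genes, 55 passed in saline and 53 in bleomycin libraries, beside high background rates. In saline, CD31+ was called against CD45+, EpCAM+ and triple-negative cells for 72.5%, 72.8% and 67.7% of all genes, CD45+ against EpCAM+ and triple-negative cells for 78.4% and 79%, and EpCAM+ against triple-negative cells for 73.1%. After bleomycin the same contrasts were called for 75.5%, 76.9%, 68.5%, 80.7%, 80.2% and 74.6%. CD45+ cells held the highest level of Phgdh, Psph, Shmt2 and Mthfd2 under both treatments, and triple-negative cells that of Aldh18a1 and Pycr1. Asns was highest in CD31+ cells after bleomycin (31.8 ± 3.66 CPM), above EpCAM+ by 0.29 (SE 0.13, adjusted p = 0.0391), while in saline the pair was not told apart (0.18, SE 0.16, adjusted p = 0.319). It was lowest in CD45+ cells under both treatments, as was Trib3, which was highest in EpCAM+ cells in saline (17.2 ± 3.20 CPM) and in CD31+ cells after bleomycin. Atf4 in saline did not differ among CD45+, CD31+ and triple-negative cells past the test, and EpCAM+ cells were lowest under both treatments. The steps between CD31+ and EpCAM+ cells for Asns and Trib3 after bleomycin were lost with another scaling (adjusted p = 0.0778 and 0.0823), and those for Mthfd2 and Trib3 in saline (0.0673 and 0.144) and Psat1 after bleomycin (0.0847) without the filter on low counts. With 1 library left out, 4 (Asns) and 6 (Trib3) of 51 fits lost the former, 5 (Mthfd2) and 14 (Trib3) the saline steps, and 4 the saline step of Psat1 between triple-negative and EpCAM+ cells. Per kb of exon, the bleomycin triple-negative libraries held 117 CPM of Atf4, 21.3 of Aldh18a1, 13.9 of Shmt2, 7.52 of Mthfd2, 7.49 of Asns, 6.25 of Pycr1, 6.05 of Psat1, 3.38 of Trib3, 2.64 of Psph and 0.98 of Phgdh.

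Other genes of serine, glycine and folate metabolism moved in both directions. Of 21 tested in CD31+ cells 9 rose and 3 fell, and of 20 in CD45+ 8 rose and 1 fell. Of 22 in EpCAM+ 7 rose and 9 fell, and of 23 in triple-negative cells 8 rose and 5 fell. Their median log2 fold changes were 0.23, 0.22, -0.04 and 0.19. Among all genes tested, 24.2%, 28.4%, 31.2% and 27.7% rose and 24.6%, 26.8%, 28.9% and 27.7% fell in these fractions. Tyms, thymidylate synthase, and Aldh1l2, a mitochondrial folate dehydrogenase, rose in CD31+ cells by 1.64 (SE 0.16) and 1.89 (SE 0.27). Aldh1l1, its cytosolic relative, rose in CD45+ (2.52, SE 0.23) and triple-negative cells (1.45, SE 0.14, adjusted p = 1.36e-06). Gldc, of glycine breakdown, and Cbs, which uses serine to make cystathionine, fell in triple-negative cells by 1.58 (SE 0.25) and 1.99 (SE 0.18, adjusted p = 1.08e-06). In EpCAM+ cells Mthfd1l, the mitochondrial formate-producing enzyme, rose by 1.16 (SE 0.28) and Mat2a, which makes S-adenosylmethionine, fell by 0.88 (SE 0.09).

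Of 14 other genes of proline, glutamate and arginine metabolism, 7 rose and 2 fell in CD31+ cells and 8 rose and 2 fell in CD45+ cells. In EpCAM+ cells 6 rose and 3 fell, and in triple-negative cells 6 rose and 4 fell. The medians were 0.23, 0.29, 0.04 and -0.00. Over all genes, 24.2%, 28.4%, 31.2% and 27.7% rose and 24.6%, 26.8%, 28.9% and 27.7% fell in these fractions. Prodh, which breaks proline down, fell in CD31+ cells by 1.21 (SE 0.15, adjusted p = 5.35e-05), where the synthesis genes Aldh18a1 and Pycr1 rose. Arg1, an arginase known from macrophages, rose in CD45+ cells (2.25, SE 0.47, adjusted p = 0.00145) and, from saline levels of 0.116 and 0.240 CPM, in CD31+ (4.78, SE 0.95) and triple-negative cells (3.21, SE 0.70). Its isoform Arg2 fell in CD45+ cells by 1.27 (SE 0.28). Ass1, of arginine synthesis, rose in CD45+ (0.78, SE 0.12) and triple-negative cells (1.89, SE 0.21, adjusted p = 4.26e-06), and Glul, glutamine synthetase, fell in triple-negative cells by 1.29 (SE 0.17). In EpCAM+ cells the largest changes were Pepd (0.58, SE 0.06), a peptidase that frees proline from dipeptides, Got1 (0.51, SE 0.09) and Oat (-0.50, SE 0.09), which links ornithine to proline.

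Among other genes of the integrated stress response 10 of 23 rose and 4 fell in CD31+, 7 of 23 rose and 8 fell in CD45+, 8 of 23 rose and 6 fell in EpCAM+, and 10 of 24 rose and 6 fell in triple-negative cells. Their medians were 0.23, -0.12, -0.03 and 0.10. Beside these counts, 24.2%, 28.4%, 31.2% and 27.7% of all genes rose and 24.6%, 26.8%, 28.9% and 27.7% fell. In CD45+ (30.4% higher, 34.8% lower) and EpCAM+ cells (34.8% and 26.1%) the list lay near these shares. Atf3, a stress-induced transcription factor, fell by 2.46 (SE 0.28) in CD31+, 2.33 (SE 0.26) in EpCAM+ and 3.33 (SE 0.30, adjusted p = 1.36e-06) in triple-negative cells. Ppp1r15a, the phosphatase subunit that closes the response, fell by 1.39 (SE 0.14) in CD45+ and 2.29 (SE 0.20) in triple-negative cells. Slc7a11, the cystine carrier and a known ATF4 target, rose in CD31+ (2.35, SE 0.58), EpCAM+ (2.76, SE 0.24, adjusted p = 1.53e-07) and triple-negative cells (2.06, SE 0.27) and fell in CD45+ cells by 1.54 (SE 0.25, 1.83e-04). Slc7a5, a carrier of large amino acids, rose in CD31+ cells by 1.84 (SE 0.25). Stc2, a secreted stress-response protein, rose in EpCAM+ cells by 2.29 (SE 0.28) and fell in CD45+ cells by 1.11 (SE 0.40, adjusted p = 0.0288).

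Cytosolic aminoacyl-tRNA synthetases, which load amino acids onto tRNA and include many ATF4 targets, were called higher for the greater part of the list in each fraction, by small amounts. Of 20 tested, 12 rose in CD31+ cells, while 15 did so in CD45+, 14 in EpCAM+ and 16 in triple-negative cells, and 0, 1, 0 and 0 fell, with medians of 0.19, 0.21, 0.28 and 0.38, beside 24.2%, 28.4%, 31.2% and 27.7% of all genes higher and medians near 0. Within blocks 1 and 2 of the table's columns, with fewer libraries, 7 and 5 of the 20 were called in CD31+ cells and 7 and 10 in CD45+ cells, and block 1 called 6 in EpCAM+ cells. Rars, for arginine, rose by 0.43 (SE 0.07) in CD31+, 0.59 (SE 0.05) in CD45+ and 0.75 (SE 0.06, adjusted p = 8.61e-08) in EpCAM+ cells. Gars, for glycine, rose by 0.40 (SE 0.06) in CD31+, 0.54 (SE 0.05) in CD45+ and 0.67 (SE 0.11, adjusted p = 1.84e-04) in triple-negative cells. Aars, for alanine, rose by 0.62 (SE 0.07) in CD45+, 0.60 (SE 0.06) in EpCAM+ and 0.62 (SE 0.05) in triple-negative cells.

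**Figure D3:**
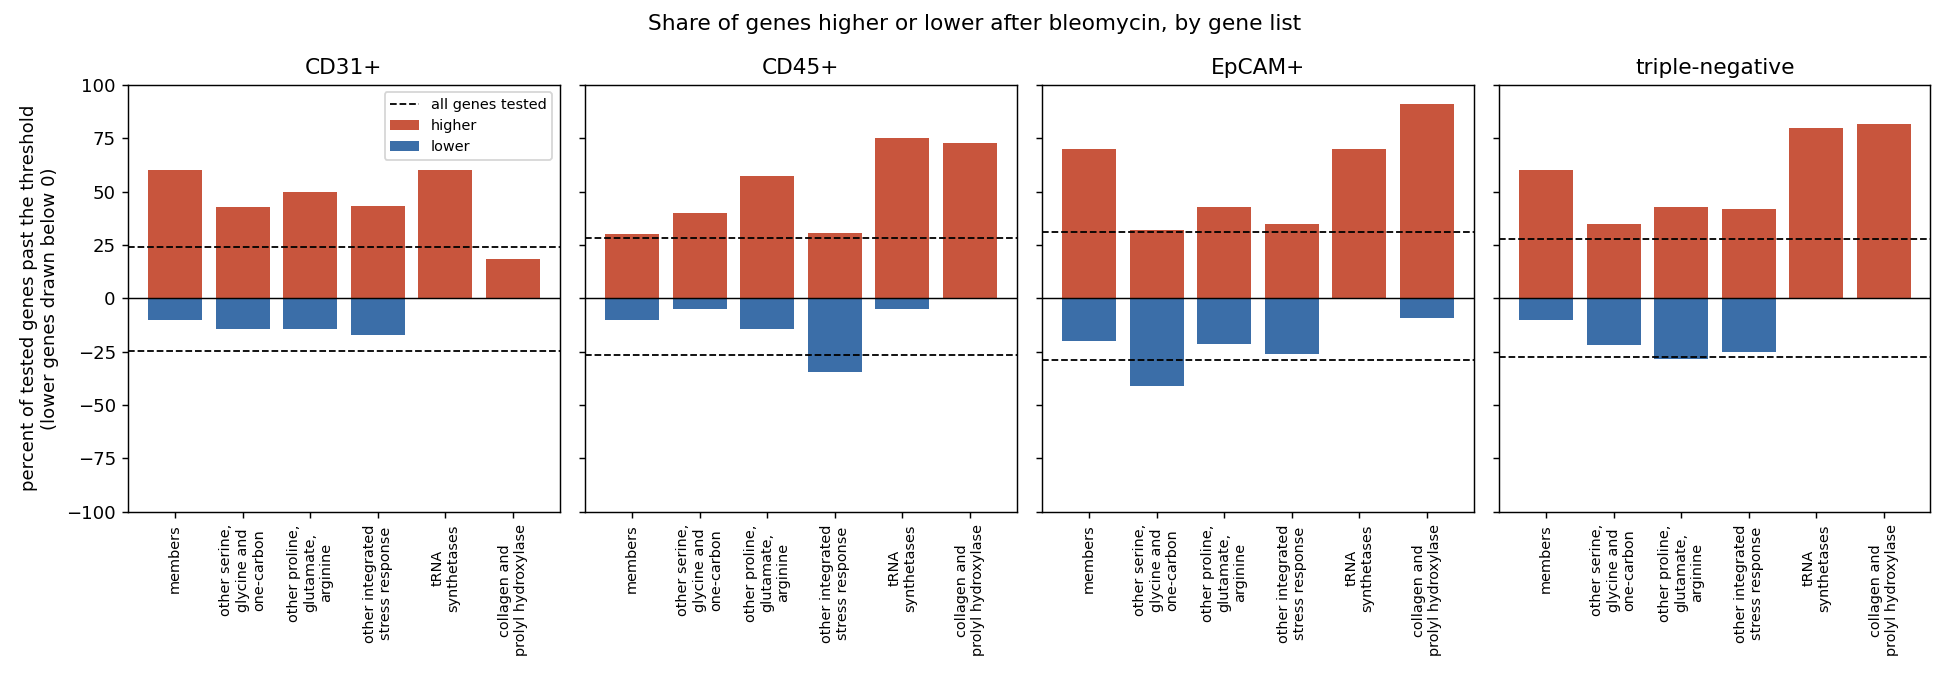
Percent of the tested genes of each list that were higher (red, above 0) or lower (blue, drawn below 0) after bleomycin, by fraction, with dashed lines at the shares over all genes tested. The synthetases have 60% to 80% of their genes higher in every fraction, while the other stress response genes lie near the dashed lines in CD45+ and EpCAM+ cells.

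Collagen chain and prolyl hydroxylase genes form the demand side of glycine and proline. They were higher for 9 of 11 in triple-negative, 10 of 11 in EpCAM+, 8 of 11 in CD45+ and 2 of 11 in CD31+ cells. Of these genes 1 was lower, in EpCAM+ cells. The shares of all genes higher were 27.7%, 31.2%, 28.4% and 24.2% in the same order of fractions. The CD45+ count was 4 without any single one of the 5 saline libraries (Saline_CD45_644 to Saline_CD45_648), with the column block as a covariate or without the filter, and the CD31+ count was 4 without Bleomycin_CD31_623 or with the marker covariate. In triple-negative cells Col1a1 rose by 1.34 (SE 0.23, adjusted p = 1.82e-04), Col5a2 by 1.40 (SE 0.20) and P4ha3, a subunit of the enzyme that hydroxylates proline in collagen, by 1.54 (SE 0.30). The rises of Col1a1 and Col1a2 in CD45+ cells (3.77, SE 1.23, and 3.27, SE 1.15) came with a Col1a1 level of 450 ± 800 CPM (n = 8), in which Bleomycin_CD45_613 alone held 2348 CPM. Bleomycin EpCAM+ libraries held 104 ± 86.1 CPM of Col1a1 (n = 8), against 16323 CPM in bleomycin triple-negative ones. Mesenchymal markers in EpCAM+ libraries summed, at the median, to 2.01% of their triple-negative level after bleomycin and 1.55% in saline. Their part in the EpCAM+ count was not tested. In CD31+ cells the pattern was otherwise, since only P4ha3 (1.73, SE 0.56, adjusted p = 0.0204) and Col5a2 (0.59, SE 0.14, 0.00467) rose, beside 6 of the 10 genes described here.

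Within the 8 bleomycin triple-negative libraries the members were set against the summed CPM of Col1a1, Col1a2 and Col3a1, which ran from 35954 to 69152, both on a log2 scale. The libraries Bleomycin_Negative_639, Bleomycin_Negative_643 and Bleomycin_Negative_642 had the least collagen and Bleomycin_Negative_638 and Bleomycin_Negative_637 the most. Aldh18a1 ran from 60.3 CPM in Bleomycin_Negative_639 to 102 CPM in Bleomycin_Negative_637 (Pearson r = 0.92, exact permutation p = 3.72e-04, adjusted over 10 genes 0.00372, Spearman rho = 0.90, exact p = 0.00456). Pycr1 ran from 17.7 CPM in Bleomycin_Negative_639 to 30.4 CPM in Bleomycin_Negative_637 (r = 0.92, exact p = 0.00231, adjusted 0.0115, rho = 0.88, exact p = 0.00724). Phgdh, Psat1, Psph, Shmt2 and Mthfd2 had r of 0.76 to 0.86 (adjusted p of the exact tests from 0.0221 to 0.0231, and 0.0296 for Psph), with rho of 0.55 to 0.83. By rank, Phgdh and Psph passed (adjusted exact p = 0.0384 each) and Mthfd2 (0.0735), Psat1 (0.096) and Shmt2 (0.19) did not. Atf4 went the other way (r = -0.72, exact p adjusted = 0.0437, rho = -0.69, exact p = 0.0694). Asns (r = 0.61) and Trib3 (r = 0.09) did not pass (exact p adjusted = 0.116 and 0.835). Without Bleomycin_Negative_639 and Bleomycin_Negative_643, the libraries farthest from the median collagen level, 1 of the 8 relations passed after adjustment, that of Atf4 (r = -0.98 over 6 libraries, exact p adjusted = 0.0417). Aldh18a1 then had r = 0.82 (exact p = 0.0208, adjusted 0.104) and Pycr1 0.79 (exact p = 0.0458, adjusted 0.153). Phgdh, Psat1, Psph, Shmt2 and Mthfd2 fell to r of 0.30 to 0.63 and did not pass. With 6 libraries and a narrower range of collagen, this cannot decide whether their relations rest on the libraries left out. The mesenchymal marker sum contains these collagen genes and rose with them. They made up 35954 of 58792 CPM in Bleomycin_Negative_639 and 69152 of 83420 CPM in Bleomycin_Negative_637. The rest of the sum was smaller in Bleomycin_Negative_637, so the rise of the sum does not show more mesenchymal RNA apart from collagen. The part of mesenchymal content in the relations was not tested. The relation was not computed over all genes, so it cannot be called particular to these 10 genes.

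**Figure D4:**
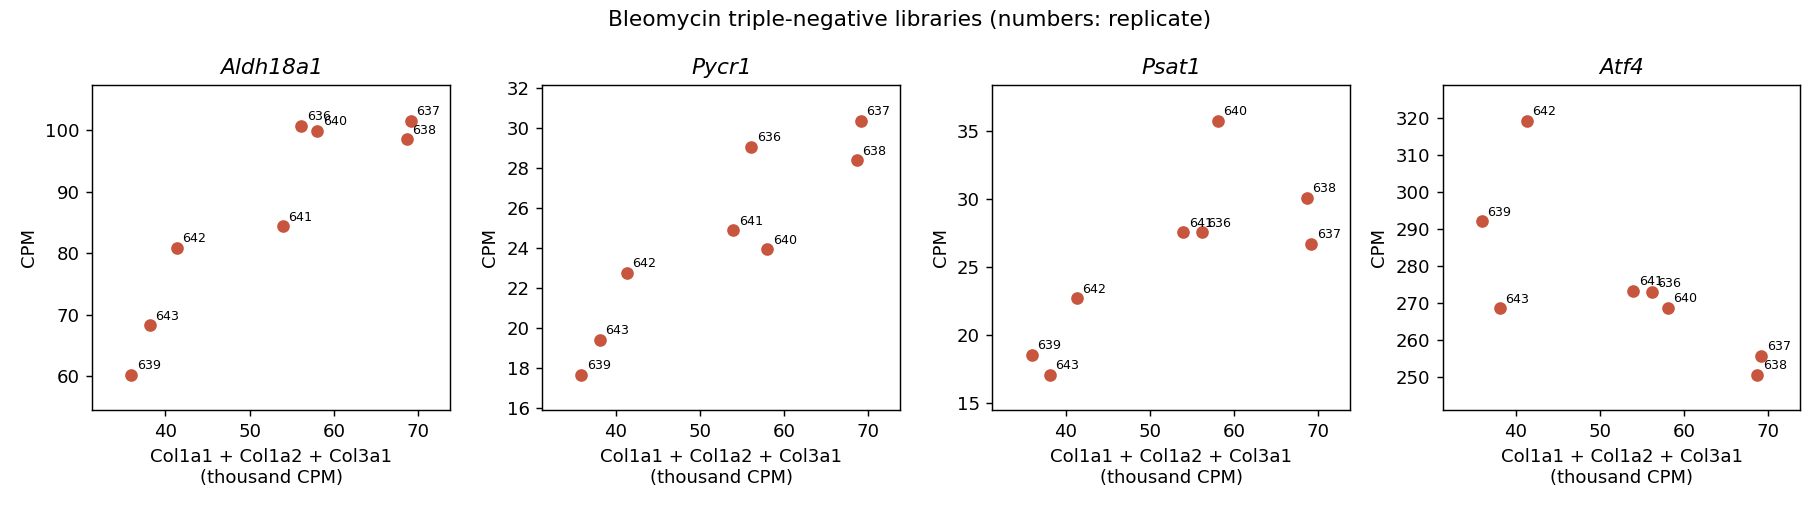
CPM of Aldh18a1, Pycr1, Psat1 and Atf4 (vertical axes, which do not start at 0) against the summed CPM of Col1a1, Col1a2 and Col3a1 (horizontal axes, scaled as labelled) in the 8 bleomycin triple-negative libraries, each point labelled with its replicate number. The first 3 genes are lowest in libraries Bleomycin_Negative_639 and Bleomycin_Negative_643, where collagen is lowest, and Atf4 is lowest in Bleomycin_Negative_637 and Bleomycin_Negative_638, where it is highest.

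Over the 51 libraries, which share fractions and treatment, the mean of the 10 genes was followed to different degrees. The correlation of each with the mean of the 10 (log2 CPM scaled to unit SD, the gene itself included) was 0.86 for Aldh18a1, 0.83 for Mthfd2, 0.73 for Shmt2 and Phgdh, 0.72 for Psat1, 0.62 for Psph and 0.58 for Pycr1. Atf4 was at -0.01, Asns at -0.23 and Trib3 at -0.50; since the mean contains each gene, these values describe its make-up and not how close the genes are to each other. Among 17955 other genes those most like the mean were Gnl3 (r = 0.92), Ppp1r14b (0.91), Tubb6 (0.90), Fn1 (0.89) and 3300005D01Rik (0.88), given as a description over 51 libraries.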

How the data were processed

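Per the labels' protocols, RNA of the sorted fractions was extracted with the RNeasy kit and made into TruSeq Stranded Total RNA libraries. The authors deposited raw counts per Entrez identifier for 51 libraries, and the per-library files held the same values as the table in 51 of 51 cases. GRCm38 is named in the submitters' processing notes, while the aligner, counter, annotation and strand setting are not given in the sources used here. Of 36528 identifiers 31049 took a RefSeq symbol and 78 a GENCODE symbol only, and the 5401 others held 1.58% of counts.

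Counts were tested with edgeR 4.0.16 in R 4.3.3 (filterByExpr, TMM scaling, robust quasi-likelihood F test), 1 fit per fraction, with Benjamini-Hochberg adjustment over all genes of the fraction and a threshold of 0.05. A fit of all 51 libraries with 8 group means tested fractions and interactions. CPM on the scaling over all libraries shifted bleomycin against saline by -0.02 (CD31+), 0.05 (CD45+), 0.01 (EpCAM+) and 0.02 (triple-negative) on the log2 scale relative to the scaling of the single fractions. Marker scores were means of log2(CPM + 0.5), compared by exact two-sided permutation. The fits were tested on simulated data. DESeq2 1.42.0, RLE scaling, no filter, left-out libraries, a marker covariate and the blocks in which the table lists its columns, which are no labelled batch, were alternatives, and the fits within 1 block were chosen after seeing the data. Python 3.11.15, scipy 1.17.1, pandas 2.3.3 and numpy 2.4.6 were used.

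The genes and lists were chosen with earlier results of these data known. All 10 genes are named, and from each further list at most the 3 genes per fraction with the largest absolute log2 fold change past the threshold. A gene that this rule also names is not reported here. Fractions of the same animals cannot be linked from the labels, so libraries entered as independent and p-values measure the spread between libraries.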

Additional observations from a re-analysis of the deposited data

Results flagged for a closer look

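Single libraries lay far from the others of their group in 7 cases of 144 groups examined, and chance marks about 1 in 20 groups. Bleomycin_CD31_621 had an epithelial marker score of 7.16 against 4.33 to 5.34 in the other bleomycin CD31+ libraries, and an endothelial score of 10.2 against 10.4 to 10.6. Mthfd2 stood at 6.84 CPM in Saline_CD31_653 against 1.47 to 3.02 CPM in the other saline CD31+ libraries, and without that library its log2 fold change was 2.99 (adjusted p = 1.29e-05 in edgeR's test) in place of 2.46. Pycr1 stood at 4.68 CPM in Bleomycin_CD45_613 against 0.915 to 2.49 CPM, the library with 7883 CPM of mesenchymal markers. Atf4 stood at 583 CPM in Saline_CD45_647 against 429 to 465.7 CPM. Pycr1 stood at 2.05 CPM in Saline_EpCAM_654 against 2.89 to 3.08 CPM. Asns stood at 9.74 CPM in Saline_Negative_663 against 6.60 to 7.20 CPM.

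The effect of bleomycin differed between fractions for 9 of the 10 genes by edgeR's interaction test, beside 64.3% of all genes. The adjusted p was 8.65e-10 for Psat1, 4.67e-07 for Phgdh, 4.72e-06 for Mthfd2, 2.86e-05 for Psph, 5.66e-05 for Asns, 0.00115 for Pycr1, 0.00302 for Trib3, 0.0154 for Aldh18a1 and 0.018 for Atf4.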

How the results depend on the processing

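Over the 40 values of 10 genes in 4 fractions, direction and side of the threshold were kept in 40 of 40 with DESeq2, RLE scaling or no filter, in 39 with the column block as a covariate and in 37 with the marker covariate. Of 510 values with 1 library left out 489 kept both, 10 lost the call, 1 gained it and 10 changed sign. Within column blocks, chosen after seeing the data, fewer libraries entered and fewer genes were called. In CD31+ cells 3179 genes (1678 higher, 1501 lower) were called in block 1 and 4222 (2186 higher, 2036 lower) in block 2, against 7838 over both. Block 1 gave 5684 genes in CD45+ and 6139 in EpCAM+ cells, and block 2 gave 5801 in triple-negative cells. Of the 10 genes, block 1 called 4 in CD31+, 1 in CD45+ and 5 in EpCAM+ cells. In block 1 the calls of Atf4 (adjusted p = 0.247) and Pycr1 (0.0856) in CD31+, of Psat1 (0.0959), Mthfd2 (0.0622) and Aldh18a1 (0.125) in CD45+ and of Phgdh (0.0998), Psph (0.327), Shmt2 (0.306) and Aldh18a1 (0.733) in EpCAM+ cells were lost in edgeR's test. Atf4 in CD31+ (0.0502) and Psat1 in CD45+ (0.134) were also lost in block 2. The 8 collagen relations fell to 1 without the 2 libraries farthest from the median.

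Changes of sign concerned small values that passed no test. Psph in CD31+ was -0.0047 with the block covariate and -0.0078 in block 2, Trib3 in CD31+ -0.12 in block 2, Psph in CD45+ -0.027 in block 1, and Pycr1 in EpCAM+ 0.15 in block 2. Aldh18a1 in bleomycin CD31+ against EpCAM+ was 0.0038 without the filter. With 1 library left out, Psph ranged from -0.029 to 0.035 in CD31+ and -0.029 to 0.12 in CD45+, Trib3 in CD31+ from -0.082 to 0.17, and Shmt2 in triple-negative cells from -0.00074 to 0.11. Among fraction contrasts, Atf4 in saline (CD31+ minus CD45+) ranged from -0.13 to 0.0015, Pycr1 in bleomycin (CD31+ minus CD45+) from -0.22 to 0.31, Aldh18a1 (CD31+ minus EpCAM+) from -0.14 to 0.12, Psat1 (CD45+ minus EpCAM+) from -0.0016 to 0.092 and Atf4 (CD45+ minus triple-negative) from -0.10 to 0.0056. The cause was not tested. Marker scores past the threshold numbered 10 with either pseudocount. Low counts limit Phgdh in CD31+ and EpCAM+ and Pycr1 in CD31+ cells. The share of glycine and proline encoded by the transcripts was not run, as no protein table was used here. No paired analysis was possible because replicate numbers differ between all groups.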
